A study of Rattus norvegicus with 24 samples.

Results

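The genes described here encode the proteasome and the enzymes that attach ubiquitin to proteins or take it off again. They were chosen by a rule on names that uses no measured value, but with earlier results of these data known. It took every probe with 1 gene symbol starting with Psma, Psmb, Psmc, Psmd or Psme (proteasome). Further starts were Ube2 or Ube3 (ubiquitin-transferring enzymes) and Fbxo (F-box proteins). Uba, Cul and Usp counted when followed by a digit (activating enzymes, cullins and ubiquitin-specific proteases). The rule found 95 probes for 87 genes, out of 10399 probes in the deposited table and 6455 genes with a symbol of their own. Psme3ip1 and Usp6nl, with 3 probes, entered through their names and encode neither a proteasome subunit nor a protease. A further 5 probes that list several symbols carry one of these names and were left out. All 95 probes had enough values to be tested, so none was lost to a filter on low signal, and 1 of them, for Psmc5, lacked a value in estradiol benzoate animal 3.

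The proteasome is a barrel (the 20S core, built of alpha and beta subunits, the latter including its proteases) capped by a regulatory particle (19S) whose ATPases unfold proteins and whose other subunits bind and trim ubiquitin chains. Proteins reach it after an E1 enzyme activates ubiquitin, an E2 carries it and an E3, often a cullin with an F-box or other receptor, places it on the target, while deubiquitinases remove it. Interferon exchanges some beta subunits for immune forms and induces the PA28 cap (Psme1 and Psme2) and the enzymes that handle the ubiquitin-like protein ISG15. In muscle this system is known for the turnover of contractile and regulatory proteins.

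The tissue was the mesenteric artery, the vessel tree that feeds the intestine, freed from fat, veins and connective tissue. All 12 animals were female Sprague Dawley rats ovariectomised at 3 weeks of age, left for 2 weeks to recover, injected intraperitoneally for 4 days and killed at 5.5 weeks after the treatment of day 4. The vehicle group (animals 3, 4, 5 and 8) received sesame oil, another group (animals 2, 3, 5 and 8) received estradiol benzoate, an ester of estradiol, at 0.15 mg/kg/day, and the last (animals 2, 4, 6 and 8) received testosterone at 1 mg/kg/day. The vehicle animals were thus ovariectomised too, no group with intact ovaries was part of the design, and each hormone was given at a single dose. The question the design addresses is how either sex steroid alters gene expression in this artery. Labelled cRNA of each animal was hybridised to 2 one-colour CodeLink arrays, which are technical duplicates and were averaged to 1 value per animal, so that n = 4 animals in each group.

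The values are log2 of the deposited array signal, in which the median probe of an array has a linear signal of 0.926 to 0.951. Duplicate arrays correlated at 0.976 to 0.993 over all probes. Smooth muscle was represented by Cnn1 and Smtn of 8 listed markers, with a summed linear signal of 35.5 to 52.8 in vehicle animals, 31.9 to 43.7 with estradiol benzoate and 34.1 to 44.7 with testosterone; the 5 measured endothelial markers summed to 49.9 to 58.8, 42.5 to 53.7 and 48.3 to 61.2. White fat cell markers summed to 59.3 to 77.0 in vehicle animals, 68.0 to 74.7 with estradiol benzoate and 61.9 to 89.8 with testosterone. Signal of fat cell genes was thus present in every animal, although the arteries were described as freed from fat. Markers of other tissues differed between animals. The summed signal of 5 liver markers was 3.49, 2.18, 20.3 and 0.582 in vehicle animals 3, 4, 5 and 8 and did not exceed 0.635 in any hormone-treated animal, so it was raised in most of the vehicle group. That of 6 pancreas markers was 91.1 in estradiol benzoate animal 3, 4.40 in estradiol benzoate animal 8, 1.44 in estradiol benzoate animal 5 and 2.02 in testosterone animal 6, beside 0.377 to 1.08 in the others. The counts of probes lower by sign are therefore also given without vehicle animal 5 and estradiol benzoate animal 3, which removes the highest values but not all of this signal. In RNA from whole arteries, fewer cells of a type and less RNA per cell cannot be told apart.

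Most of these probes gave a strong signal: 75 of the 95 lay above the median signal of all tested probes, 45 in the brightest 25% and 6 in the dimmest 25%. They also varied little. The median standard deviation between animals of a group was 0.15 on the log2 scale, beside 0.20 for all 10228 probes tested. That between duplicate arrays was 0.10 beside 0.12. Shares of all probes given below were not matched for signal.

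No proteasome or ubiquitin gene was called different between any 2 groups. In the limma model fitted over the 12 animals, with Benjamini-Hochberg adjustment over all 10228 probes and a threshold of 0.05, 0 of the 95 probes were called for estradiol benzoate against vehicle, where 0% of all probes were called, 0 for testosterone against vehicle (0.0489% of all probes), 0 for estradiol benzoate against testosterone (0.0293%) and 0 by the F test of any difference among the 3 groups (0.00978%). The smallest adjusted p among them was 0.232, 0.273 and 0.999 in the 3 comparisons. At an unadjusted p under 0.05 there were 10 probes for estradiol benzoate against vehicle (10.5%, beside 13.5% of all probes). They were Ube2d2b, Ube2r2 and Usp18 on the higher side (3.16%, beside 6.77%) and Psma4, the brighter Psmb3 probe, Psmd5, Psmd12, Psme4, the dimmer Usp2 probe and the dimmer Usp47 probe on the lower side (7.37%, beside 6.69%). For testosterone against vehicle there were 7 (7.37%, beside 14%): Psmc3, Ube2d2b and Usp48 higher (3.16%, beside 6.62%) and the brighter Psmb3 probe, Psmd2, Psme1 and Ube2f lower (4.21%, beside 7.43%). Estradiol benzoate against testosterone gave 1 (1.05%, beside 4.13%), Ube2r2, on the higher side (1.05%, beside 2.41%), and 0 on the lower side (0%, beside 1.71%). The F test gave 2 (2.11%, beside 11.9%), Ube2d2b and Psmd2.

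The data set bounds on how far these genes could have moved. The 95% interval of the difference lay wholly within 0.5 log2 units of zero for 79 of the 95 probes (83.2%) with estradiol benzoate, for 79 (83.2%) with testosterone and for 83 (87.4%) between the hormones. For all probes the shares were 56.4%, 56.9% and 66.3%. A difference of at least 0.3 log2 units was seen for 4 probes (4.21%, beside 21.9% of all) with estradiol benzoate, 5 (5.26%, beside 21%) with testosterone and 2 (2.11%, beside 11.4%) between the hormones.

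Within these bounds, more of the probes had a lower mean in the hormone groups than in vehicle. With estradiol benzoate 63 of 95 were lower by sign (66.3%, beside 52.4% of all probes), with a median difference of -0.05 beside -0.01. With testosterone 62 were lower (65.3%, beside 52.3%), with a median of -0.07 beside -0.01. Both comparisons use the same 4 vehicle animals, so they are not independent of each other. The shares of all probes were not matched for signal. The median log2 signal was 1.28 for the 95 probes and -0.10 for all probes, and its part in these shares was not tested. Between the hormones 50 of 95 were lower with estradiol benzoate (52.6%, beside 51.5%), and the median was -0.0038. Quantile normalisation of the arrays left 54 and 55 probes lower against vehicle, and without vehicle animal 5 and estradiol benzoate animal 3 the counts were 55 and 58. Markers of cell types also differed in sign from vehicle. The 2 measured smooth muscle genes were lower in both hormone groups (medians -0.15 and -0.15), 0 called. Of 5 endothelial genes, 4 were lower with estradiol benzoate and 3 with testosterone (medians -0.15 and -0.04), 0 called. Of 6 genes of dividing cells, 6 were lower by sign with estradiol benzoate (median -0.62) and 5 with testosterone (median -0.19), 0 called, with summed linear signals of 11.8 to 24.3 in vehicle, 6.88 to 15.6 with estradiol benzoate and 8.97 to 20.9 with testosterone. Of 5 genes of white fat cells, 4 were higher in each hormone group (medians 0.30 and 0.26), 0 called, with sums of 59.3 to 77.0, 68.0 to 74.7 and 61.9 to 89.8. The part of these cell types in the result was not tested.

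**Figure D1:**
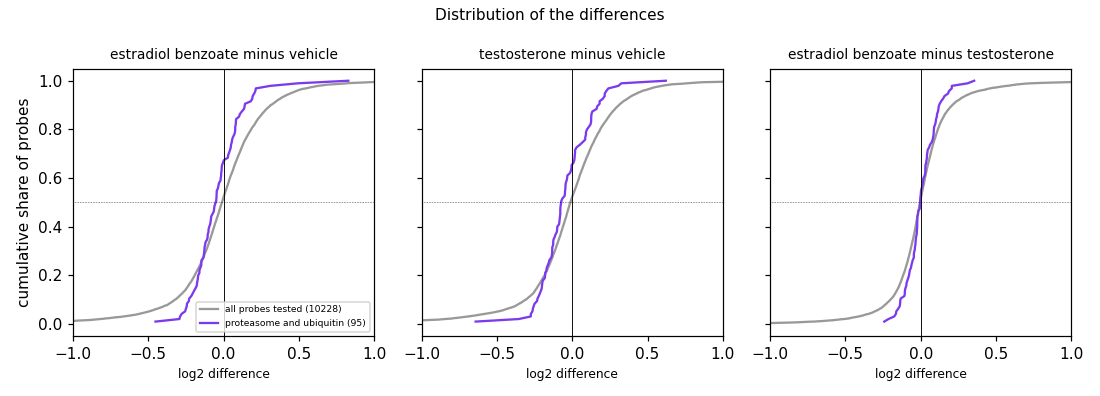
Cumulative share of probes (vertical axis) against the log2 difference between group means (horizontal axis, cropped at 1 unit either side) for the 95 proteasome and ubiquitin probes and all 10228 tested probes, in the 3 comparisons. The curve of the 95 probes is steeper, and against vehicle it crosses the middle line slightly to the left, at medians of -0.05 and -0.07.

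Promoter sequences were taken from RefSeq (assembly GRCr8), which matched 77 of the 87 genes by gene ID. The search covered both strands of the 250 bases before each start site to 50 bases after it. The interferon-type motif, GAAA repeated after any 2 bases, was found in 5 of the 77 (6.49%, beside 3.77% of 27457 promoters): Psma4, Psmb3, Psmb10, Psme2 and Fbxo7. The motif TGACNNNGC, the antioxidant-response type by which the factors Nfe2l1 and Nfe2l2 act on proteasome genes, was found in 16 (20.8%, beside 12.2%), among them Psmb2, Psmd1, Psmd3, Psmd9 and Psme4. The E-box CACGTG was found in 9 (11.7%, beside 6.65%), among them Psma4 and Psmb3. The full estrogen and androgen response elements, each a half-site (GGTCA or AGAACA), any 3 bases and the half-site's reverse complement, were found in 0 of the 77, beside 0.0255% and 0.00728% of all promoters. A match describes letters and not a bound site, and no printed match overlaps another. Psmb9, Psme1, Usp18 and Ube2l6, also interferon-inducible, were not among the 5 genes with the interferon-type motif. Psma4, Psmb3 and Psme4 had a match and signals that did not overlap between vehicle and estradiol benzoate animals. Stretches around the matches are printed for Psmb3 and Psme4 of these, and not for Psma4. They are also printed for Psmb10 and Psme2, interferon-inducible members with a match. Each runs 5′ to 3′ along the gene's strand, with the matches in capitals.
Psmb3, chr10:83193537-83193673, plus strand, E-box then interferon-type motif on the opposite strand: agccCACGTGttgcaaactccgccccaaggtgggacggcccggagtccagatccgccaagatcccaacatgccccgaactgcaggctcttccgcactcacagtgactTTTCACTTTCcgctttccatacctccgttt
Psmb10, chr19:50743293-50743385, minus strand, interferon-type motif at 2 places: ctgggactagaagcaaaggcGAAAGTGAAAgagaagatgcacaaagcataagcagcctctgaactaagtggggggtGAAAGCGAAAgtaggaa
Psme2, chr15:33052775-33052824, minus strand, interferon-type motif: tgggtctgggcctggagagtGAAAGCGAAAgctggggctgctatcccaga
Psme4, chr14:108706568-108706616, plus strand, antioxidant-type motif on the opposite strand: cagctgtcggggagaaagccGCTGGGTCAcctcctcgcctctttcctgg

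The alpha subunits form the outer rings of the core and its gate. Of the 5 measured (Psma1, Psma2, Psma4, Psma5 and Psma6), 2 were lower by sign and 3 higher in each hormone group against vehicle, with medians of 0.06 for estradiol benzoate and 0.09 for testosterone and no call. Psma4 stood at the low end. Its log2 signal was 4.41, 4.20, 4.24 and 4.43 in vehicle animals 3, 4, 5 and 8, then 4.17, 4.14, 4.12 and 4.06 in estradiol benzoate animals 2, 3, 5 and 8, and 4.03, 4.26, 4.05 and 4.22 in testosterone animals 2, 4, 6 and 8. All 4 estradiol benzoate animals lay below all vehicle animals, by a narrow gap, and the testosterone animals overlapped them. The difference was -0.20 (SE 0.09, adjusted p = 0.347) with estradiol benzoate and -0.18 (SE 0.09, adjusted p = 0.375) with testosterone. The other alpha subunits differed from vehicle by -0.13 to 0.13, the ends being Psma5 and Psma6 with testosterone.

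The beta subunits hold the proteases of the core. The 5 measured standard subunits were Psmb1, Psmb2, Psmb3, Psmb4 and Psmb7. The standard proteases Psmb5 and Psmb6 were not among the probes, so the core proteases were covered only in part. The 7 probes for the 5 measured standard subunits had differences of -0.19 to 0.08 with estradiol benzoate and -0.20 to 0.17 with testosterone, none called. Psmb3, a structural beta subunit, was lowest in both. Its brighter probe read 4.40, 4.36, 4.42 and 4.27 in vehicle, 4.20, 4.16, 4.18 and 4.15 with estradiol benzoate and 4.04, 4.34, 4.10 and 4.17 with testosterone. The vehicle and estradiol benzoate animals did not overlap, and testosterone animal 4 lay among the vehicle animals. The difference was -0.19 (SE 0.08, adjusted p = 0.341) with estradiol benzoate and -0.20 (SE 0.08, adjusted p = 0.324) with testosterone, and the dimmer Psmb3 probe gave -0.12 and -0.10 (adjusted p = 0.487 and 0.587).

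The remaining measured standard beta subunits stayed close to vehicle. Psmb7, the trypsin-like protease, differed by -0.09 (SE 0.08) and -0.08 (SE 0.08). Psmb1, a structural subunit, differed by 0.03 and 0.09 (SE 0.09), and the brighter Psmb2 probe by 0.08 and 0.11 (SE 0.11). Psmb4, the subunit with the largest spread between animals (SD 0.30), differed by -0.02 and 0.13 (SE 0.20), and its interval with estradiol benzoate ran from -0.46 to 0.41.

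The immune subunits Psmb9 and Psmb10 replace standard proteases of the core after interferon. The immune subunit Psmb8 was not among the probes. Psmb9 read 0.82, 1.07, 1.12 and 0.58 in vehicle, 1.00, 0.96, 0.86 and 0.70 with estradiol benzoate and 0.66, 1.05, 0.71 and 0.63 with testosterone. The 3 groups overlapped throughout, and the differences from vehicle were -0.02 (95% interval -0.32 to 0.29, adjusted p = 0.966) and -0.13 (-0.44 to 0.17, adjusted p = 0.680). Psmb10 read 1.65, 1.60, 2.00 and 2.04 in vehicle, 1.67, 2.00, 1.54 and 1.56 with estradiol benzoate and 1.41, 1.78, 1.43 and 1.61 with testosterone. The groups overlapped, with 1.41 and 1.43 in the testosterone group the lowest of all. The differences were -0.13 (adjusted p = 0.711) and -0.26 (-0.58 to 0.05, adjusted p = 0.429).

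The ATPases of the regulatory particle unfold substrates and open the gate. Of the 5 measured, 2 were lower and 3 higher by sign in each hormone group, with medians of 0.06 and 0.01. Psmc3 and Psmc5 lay on the high side. Psmc3 read 2.03, 2.36, 2.39 and 2.40 in vehicle, 2.77, 2.39, 2.38 and 2.49 with estradiol benzoate and 2.83, 2.66, 2.62 and 2.30 with testosterone. Vehicle animal 3 was the lowest of all, and 1 testosterone animal lay within the vehicle range. The difference was 0.21 (SE 0.14, adjusted p = 0.488) with estradiol benzoate and 0.31 (SE 0.14, adjusted p = 0.348) with testosterone. The first was 0.13 when either vehicle animal 3 or estradiol benzoate animal 2 was left out. The second was 0.22 without vehicle animal 3. Psmc5 differed by 0.19 (SE 0.12, from 3 estradiol benzoate animals) and 0.23 (SE 0.11). Psmc4 was on the low side at -0.17 (SE 0.10) in both, and its estradiol benzoate and vehicle animals did not overlap. Psmc1 and Psmc2 differed by -0.13 to 0.06.

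The Psmd genes, which encode the non-ATPase subunits of the regulatory particle and 3 of its assembly chaperones, had mostly lower means in the hormone groups. Of 11 measured, 9 had a lower mean than vehicle with estradiol benzoate (median -0.17) and 11 with testosterone (median -0.16), and none was called. Beside this, 52.4% and 52.3% of all probes, which were not matched for signal, were lower by sign. Without vehicle animal 5 and estradiol benzoate animal 3 the counts were 8 and 9, with medians of -0.18 and -0.16, and the medians were -0.10 and -0.07 on the AB arrays alone and -0.10 and -0.09 with quantile normalisation.

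Psmd2, a large scaffold of the base that docks ubiquitin shuttles, had the smallest p of all 30 probes for core and regulatory subunits. It read 3.24, 2.93, 2.84 and 3.03 in vehicle, 2.64, 2.73, 3.09 and 2.75 with estradiol benzoate and 2.50, 2.78, 2.67 and 2.67 with testosterone. Every testosterone animal lay below every vehicle animal, while estradiol benzoate animal 5 lay within the vehicle range. The difference was -0.35 with testosterone (95% interval -0.62 to -0.09, adjusted p = 0.273) and -0.21 with estradiol benzoate (-0.47 to 0.06, adjusted p = 0.454). Psmd1, the other large scaffold of the base, read 0.03, 0.24, 0.00 and 0.60 in vehicle and -0.12 to 0.03 with testosterone. Its difference was -0.27 (SE 0.13, adjusted p = 0.360), with vehicle animal 8 the highest of all 12, and it was -0.15 without that animal.

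Psmd5, a chaperone that helps to assemble the base and leaves before the particle is complete, read 1.54, 1.22, 1.36 and 1.54 in vehicle, 0.98, 1.19, 1.19 and 1.12 with estradiol benzoate and 0.95, 1.35, 1.04 and 1.43 with testosterone. The estradiol benzoate animals lay below all vehicle animals, with a difference of -0.29 (SE 0.12, adjusted p = 0.329); testosterone animals lay within and below the vehicle range, with -0.22 (SE 0.12, adjusted p = 0.438). The other assembly chaperones differed by -0.17 and -0.20 (Psmd10) and by -0.09 and -0.04 (Psmd9).

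Psmd12, a subunit of the lid, read 2.70, 2.42, 2.55 and 2.55 in vehicle, 2.23, 2.34, 2.40 and 2.34 with estradiol benzoate and 2.14, 2.39, 2.33 and 2.56 with testosterone. Vehicle and estradiol benzoate animals were separate by a small margin, at -0.23 (SE 0.10, adjusted p = 0.348), and with testosterone the difference was -0.20 (SE 0.10, adjusted p = 0.387). The lid subunit Psmd6 did not overlap between vehicle and estradiol benzoate either (-0.17, SE 0.09). Psmd13 differed by -0.16 in both, Psmd11 by -0.05 and -0.07, Psmd3 by 0.05 and -0.08, and Psmd4, a ubiquitin receptor, by 0.04 and -0.01.

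**Figure D2:**
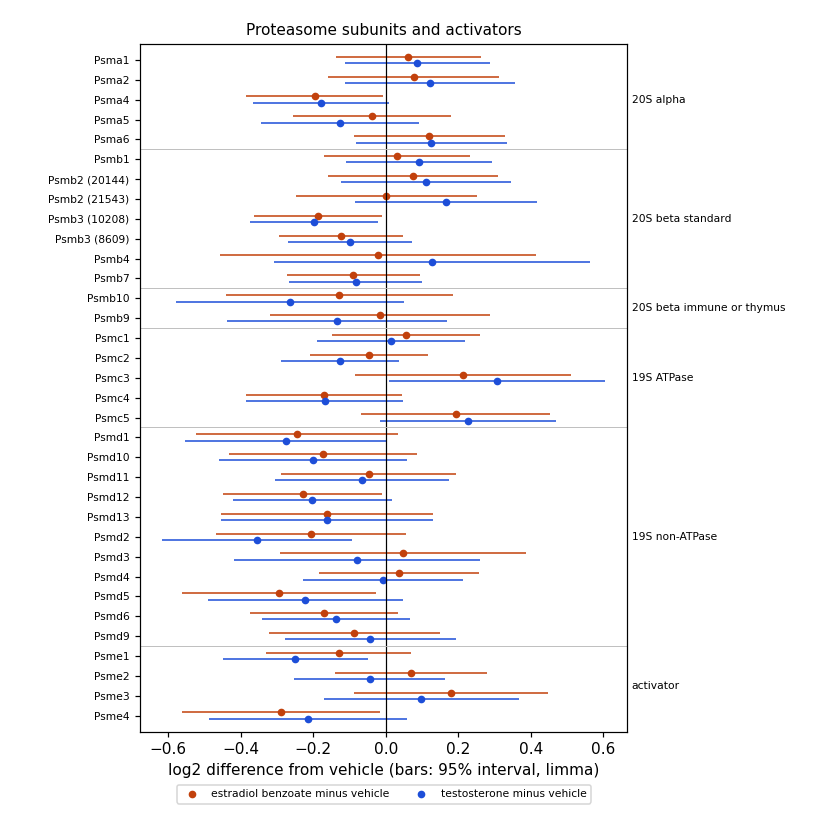
Log2 difference from vehicle (points) with its 95% limma interval (bars) for each probe of the 20S core, the 19S particle and the activators; numbers in brackets are probe identifiers of genes with 2 probes. The Psmd points lie mostly left of zero, those of the alpha and ATPase subunits on both sides, and most intervals cross zero.

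The activators cap the core in place of the regulatory particle. Psme1 and Psme2 are the PA28 subunits that interferon induces. Psme1 read 3.53, 3.46, 3.77 and 3.41 in vehicle, 3.49, 3.45, 3.34 and 3.36 with estradiol benzoate and 3.18, 3.34, 3.30 and 3.35 with testosterone. All testosterone animals lay below all vehicle animals, and the difference was -0.25 (SE 0.09, adjusted p = 0.297), or -0.17 without vehicle animal 5, the highest; with estradiol benzoate it was -0.13 (SE 0.09, adjusted p = 0.533). Psme2 read 3.55, 3.50, 3.53 and 3.69, then 3.68, 3.85, 3.56 and 3.46, then 3.40, 3.56, 3.57 and 3.55, with overlap throughout and differences of 0.07 and -0.04 (SE 0.10). Whether the Psme1 and Psme2 differences were unequal was not tested.

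Psme3, the nuclear activator, differed by 0.18 (SE 0.12, adjusted p = 0.516; 0.12 without estradiol benzoate animal 2) and 0.10. Psme4, the large activator that caps the core for ubiquitin-independent breakdown, read 3.20, 2.86, 3.12 and 3.14 in vehicle, 2.83, 2.82, 2.75 and 2.78 with estradiol benzoate and 2.62, 2.80, 2.81 and 3.23 with testosterone. The estradiol benzoate animals were tightly grouped below the vehicle animals, and testosterone animal 8 was the highest of all 12. The differences were -0.29 (SE 0.12, adjusted p = 0.341) and -0.21 (SE 0.12, adjusted p = 0.459).

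**Figure D3:**
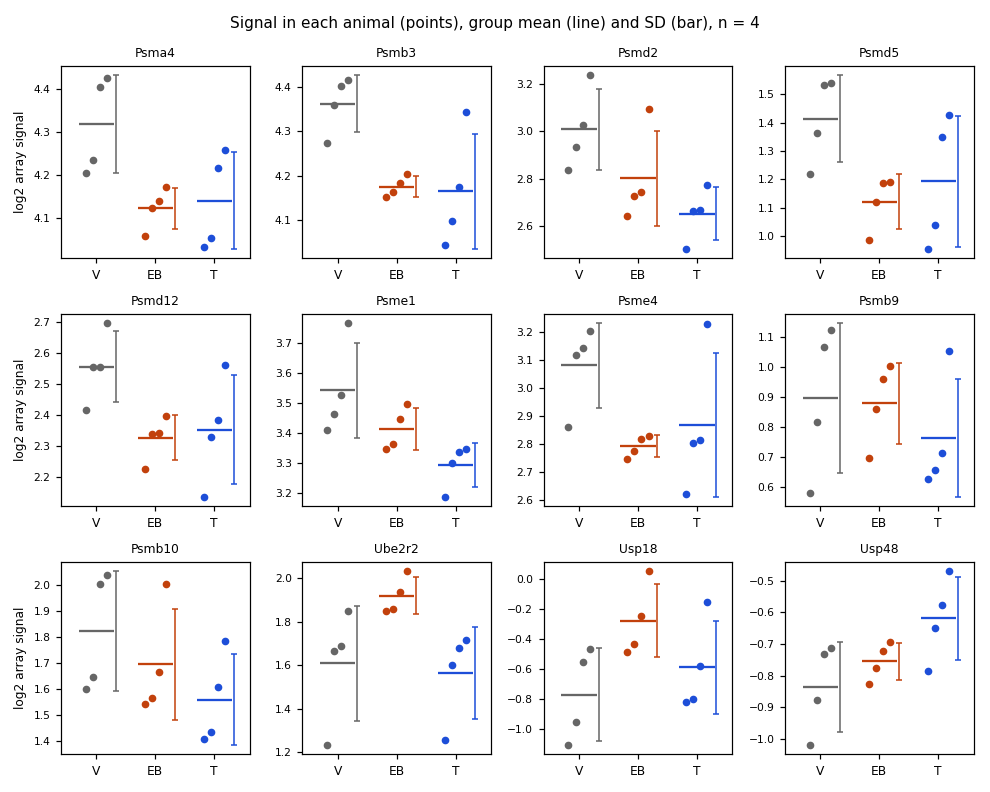
Log2 array signal of 12 genes in each animal (points), by group (V vehicle, EB estradiol benzoate, T testosterone), with the group mean (line) and standard deviation (bar); the vertical axis differs between panels and does not start at zero. Vehicle and estradiol benzoate points are separate for Psma4, Psmb3, Psmd5, Psmd12 and Psme4, and vehicle and testosterone points for Psmd2 and Psme1.

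Groups of 4 animals that did not overlap were counted over all 95 probes. Against vehicle, 9 probes (9.47%, beside 4.29% of all probes) were lower with estradiol benzoate in all 4 animals than in any vehicle animal: Psma4, both Psmb3 probes, Psmc4, Psmd5, Psmd6, Psmd12, Psme4 and Ube2l3. None was higher in that way (0%, beside 3.53%). With testosterone, Psmd2 and Psme1 were lower (2.11%, beside 3.14%) and Ube2d2b higher (1.05%, beside 2.45%). Between the hormones, Ube2r2 was higher with estradiol benzoate (1.05%, beside 1.88%) and the dimmer Usp2 probe lower (1.05%, beside 1.17%).

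Core and regulatory subunits were also summarised for each animal. Over the 30 core and regulatory probes, the median deviation from each probe's mean was highest in vehicle animal 5 (0.12, with 4 of 30 below their mean) and testosterone animal 4 (0.11, with 7 below), and lowest in testosterone animal 2 (-0.14, with 23 below) and testosterone animal 6 (-0.07, with 22 below). The estradiol benzoate animals ran from -0.07 to -0.0042. The testosterone group therefore held both the lowest and the second highest animal, and for all 10228 probes the same quantity ran from -0.017 to 0.024. Vehicle animal 5 was also the animal with the highest liver markers. The summed signal of dividing cell markers was 21.2 in vehicle animal 5, 20.9 in testosterone animal 4 and 8.97 in testosterone animal 2. It was highest, at 24.3, in vehicle animal 3, whose median deviation was -0.015. The part of either set of markers in the result was not tested.

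Activating enzymes stand at the head of the cascade. Uba2, the subunit of the SUMO activating enzyme, differed by -0.11 and -0.18 (SE 0.11), and Uba3, the catalytic subunit for NEDD8, by 0.03 and 0.13 (SE 0.10). Uba6, a second activating enzyme for ubiquitin, read -1.19, -1.04, -1.11 and -0.79 in vehicle and -1.20, -1.17, -1.35 and -1.43 with estradiol benzoate. Estradiol benzoate animal 3 lay within the vehicle range and the others at or below its low end, with a difference of -0.26 (SE 0.12, adjusted p = 0.376); with testosterone it was -0.12.

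Of the 18 E2 genes, 11 were lower by sign with estradiol benzoate and 10 with testosterone, with medians of -0.01 and -0.05. Ube2r2, a relative of Cdc34 that works with cullin ligases, was the member with the smallest p between the hormones. It read 1.69, 1.67, 1.85 and 1.23 in vehicle, 1.94, 1.86, 2.03 and 1.85 with estradiol benzoate and 1.72, 1.60, 1.68 and 1.26 with testosterone. The estradiol benzoate animals lay above all testosterone animals and at or near the top of the vehicle range or above it. The difference was 0.36 against testosterone (adjusted p = 0.999) and 0.31 against vehicle (SE 0.14, adjusted p = 0.361). The low animal 8 of the vehicle group carried part of the second, which was 0.18 without it.

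Ube2d2b, a relative of the broadly used Ube2d enzymes, had the smallest p of all 95 probes and one of the dimmest signals. It read -6.92, -6.83, -6.43 and -6.87 in vehicle, -5.33, -6.28, -6.56 and -5.56 with estradiol benzoate and -6.33, -5.83, -6.11 and -6.28 with testosterone. The differences were 0.83 (SE 0.25, adjusted p = 0.232) and 0.62 (SE 0.25, adjusted p = 0.318), and every testosterone animal lay above every vehicle animal. With 0.1 added to the linear signal before taking log2, which damps probes near the floor of the array, they were 0.09 and 0.05. Its linear signal was 0.00827 to 0.0248, beside array medians of 0.926 to 0.951, and whether it lay above background was not tested.

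Other E2 genes with an unadjusted p near 0.05 were few. Ube2f, which passes NEDD8 to Cul5, read 2.87, 2.69, 2.54 and 2.48 in vehicle and 2.25, 2.55, 2.47 and 2.40 with testosterone, a difference of -0.23 (SE 0.10, adjusted p = 0.350) with overlap. Ube2e1 differed by -0.26 with testosterone (SE 0.12, adjusted p = 0.357). Ube2n, which builds chains used in signalling, read -1.05, -0.87, -0.98 and -1.19 in vehicle and -0.70, -0.72, -0.78 and -1.04 with estradiol benzoate, a difference of 0.21 (SE 0.10, adjusted p = 0.370); its partner Ube2v2 differed by -0.11 (SE 0.09). Ube2g1 differed by 0.33 with testosterone (SE 0.18, adjusted p = 0.426), or 0.15 without vehicle animal 3. Enzymes of the endoplasmic reticulum lay near vehicle, with differences of -0.10 and -0.13 for Ube2j1 and -0.10 and -0.08 for Ube2j2.

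The ligases showed a similar picture. All 4 cullin probes, for the scaffolds Cul3, Cul4b and Cul5, were lower by sign in both hormone groups, with medians of -0.17 and -0.22. Cul3 read 3.44, 3.05, 3.07 and 3.28 in vehicle, 3.15, 2.90, 3.14 and 2.94 with estradiol benzoate and 2.78, 3.12, 3.05 and 3.06 with testosterone, which gave -0.18 and -0.21 (SE 0.12, adjusted p = 0.501 and 0.442) with overlap in both. The brighter Cul5 probe differed by -0.23 in both (SE 0.13, adjusted p = 0.433 and 0.429) and the dimmer one by -0.16 and -0.26 (SE 0.21). Of 7 F-box genes, 6 were lower by sign with estradiol benzoate and 3 with testosterone, within -0.15 to 0.24; Fbxo2, a receptor for glycoproteins and a dim probe here, had the widest spread of all members (SD 0.65). The ligases Ube3b and Ube3c differed by -0.05 to 0.08.

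**Figure D4:**
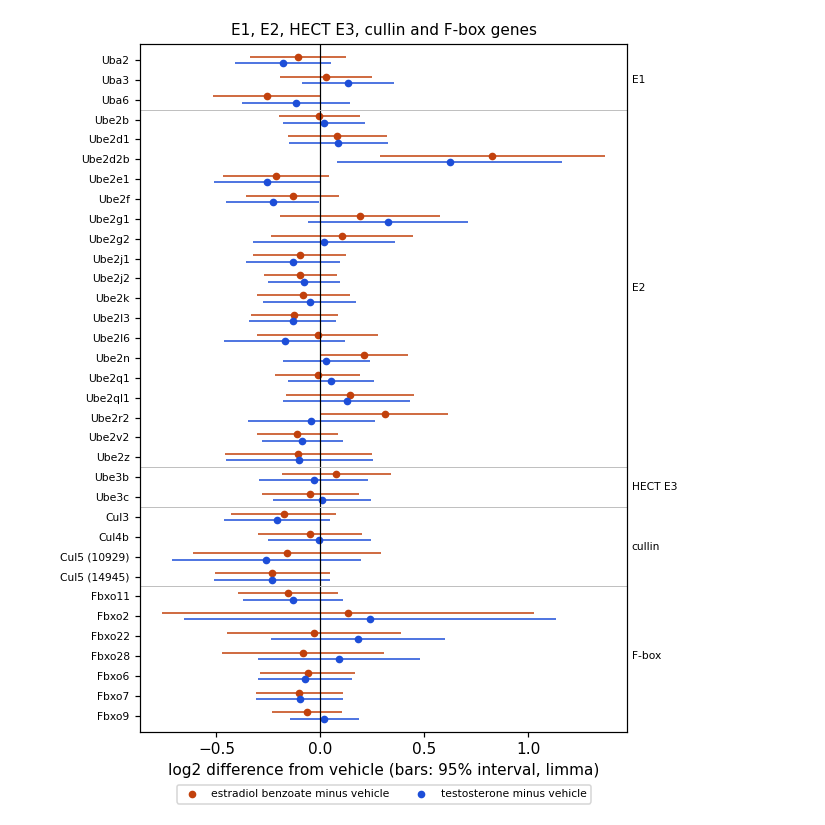
Log2 difference from vehicle (points) with its 95% limma interval (bars) for the activating (E1), transferring (E2), HECT ligase, cullin and F-box probes; numbers in brackets are probe identifiers. Most intervals cross zero, and the widest belong to the dim probes Fbxo2 and Ube2d2b.

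Deubiquitinases were represented by 24 probes for 20 genes. By sign, 16 were lower with estradiol benzoate and 18 with testosterone, with medians of -0.05 and -0.06, and none was called. Usp18, which takes ISG15 off proteins and restrains the interferon receptor, had the largest difference of them. It read -0.96, -1.11, -0.55 and -0.47 in vehicle, -0.24, -0.44, 0.06 and -0.49 with estradiol benzoate and -0.58, -0.15, -0.82 and -0.80 with testosterone. Of the 4 estradiol benzoate animals, 3 exceeded every vehicle animal and animal 8 did not. The difference was 0.49 against vehicle (95% interval 0.08 to 0.91, adjusted p = 0.311) and 0.31 against testosterone (adjusted p = 0.999), and testosterone against vehicle gave 0.18 (adjusted p = 0.687). Leaving out single animals moved the first value between 0.38 and 0.60.

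Usp14, the deubiquitinase that sits on the proteasome, differed by -0.15 and -0.11 (SE 0.11, adjusted p = 0.538 and 0.661). Usp47 was measured by 2 probes, whose differences were -0.25 (SE 0.11, adjusted p = 0.333) and -0.13 (SE 0.08, adjusted p = 0.468) with estradiol benzoate. The first rested in part on vehicle animal 3, at 2.62 beside 2.12 to 2.31 in the other vehicle animals, and was -0.15 without it. Usp48 read -0.73, -1.02, -0.88 and -0.71 in vehicle and -0.78, -0.58, -0.65 and -0.47 with testosterone, a difference of 0.22 (SE 0.10, adjusted p = 0.346) with 1 testosterone animal in the vehicle range. Usp40 differed by 0.20 with estradiol benzoate (SE 0.15, adjusted p = 0.560), or 0.11 without estradiol benzoate animal 8 and 0.32 without animal 3. Usp7, which stabilises the p53 ligase, differed by -0.15 and -0.20 (SE 0.12).

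Of 8 genes with 2 probes, Cul5, Psmb2, Psmb3, Usp1 and Usp47 had probes of the same sign against vehicle in both hormone groups, and Usp2, Usp32 and Usp6nl did not. Usp2, a deubiquitinase whose transcript follows the circadian clock in many tissues, had a brighter probe at 0.11 and 0.22 (SE 0.11) and a dimmer one at -0.28 and -0.04 (SE 0.13). The dimmer probe read -0.91, -1.23, -1.38 and -1.42 in vehicle and -1.42, -1.76, -1.44 and -1.45 with estradiol benzoate. Its difference of -0.28 (adjusted p = 0.361) was -0.17 without vehicle animal 3. Of 8 measured clock genes 3 were called with testosterone, where Dbp (1.96, SE 0.27, adjusted p = 0.0297) and Bhlhe40 (1.22, SE 0.17, adjusted p = 0.0297) rose and Bmal1 (-1.21, SE 0.15, adjusted p = 0.0282) fell; their part in the Usp2 values was not tested. No direction is given for Usp2, Usp32 and Usp6nl.

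Spread between animals differed among the genes. The largest standard deviations within groups belonged to Fbxo2 (0.65), the dimmer Usp6nl probe (0.47), Ube2d2b (0.38), the dimmer Cul5 probe (0.32) and Psmb4 (0.30). The smallest belonged to Psmc2 (0.07), Fbxo9 (0.07), the dimmer Psmb3 probe (0.08), the brighter Usp47 probe (0.08) and Ube2j2 (0.08). For Psmc2 the interval was -0.21 to 0.12 with estradiol benzoate and -0.29 to 0.04 with testosterone.

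Pairs of genes were set against one another over the 12 animals, in 8 relations with p adjusted over the 8. All but Usp2 with the clock gene Dbp joined interferon-inducible genes. Irf7, Tap1 and Dbp are not members. Usp18 followed Irf7, a transcription factor that interferon induces: Pearson r was 0.84 (permutation p = 0.00066, adjusted 0.00528) and Spearman rho 0.79 (permutation p = 0.0035, adjusted 0.028). Without the 2 animals farthest from the median of Usp18, r was 0.75, and after removal of the group means it was 0.71. Ube2l6, the E2 for ISG15, followed Psmb9 with r = 0.72 (permutation p = 0.00936, adjusted 0.0374) and rho = 0.69 (permutation p = 0.016, adjusted 0.0641), r being 0.67 without 2 animals and 0.68 after removal of group means. Psmb9 and Psme1 gave r = 0.62 (permutation p = 0.0238, adjusted 0.0635) and rho = 0.48 (adjusted 0.322). At an adjusted p of 0.05, Usp18 with Irf7 passed by both measures, Ube2l6 with Psmb9 by r alone, and Psmb9 with Psme1 by neither. The permutations ignored the groups, so these p include any difference between groups that both genes share. The r after removal of group means was not tested.

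The remaining 5 relations passed by neither measure. Psmb9 and its divergent neighbour Tap1, a peptide transporter, gave r = -0.00094 (rho = 0.03). The value was 0.22 (rho = 0.10) for Psme1 and Psme2, 0.32 (rho = 0.27) for Psmb9 and Psmb10, 0.31 (rho = 0.36) for Usp18 and Ube2l6 and 0.29 (rho = 0.10) for the brighter Usp2 probe and the clock gene Dbp. Their adjusted permutation p for r ran from 0.477 to 0.998. After removal of group means r was 0.12 for Psmb9 and Tap1 and 0.18 for Psme1 and Psme2. It was then 0.21 for Psmb9 and Psmb10, 0.41 for Usp18 and Ube2l6, and -0.60 for the brighter Usp2 probe and Dbp. Without the 2 animals farthest from the median of Usp2, the pooled r of Usp2 and Dbp was 0.09. Arrays of one animal share RNA and scaling, and all points within a group share a treatment.

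**Figure D5:**
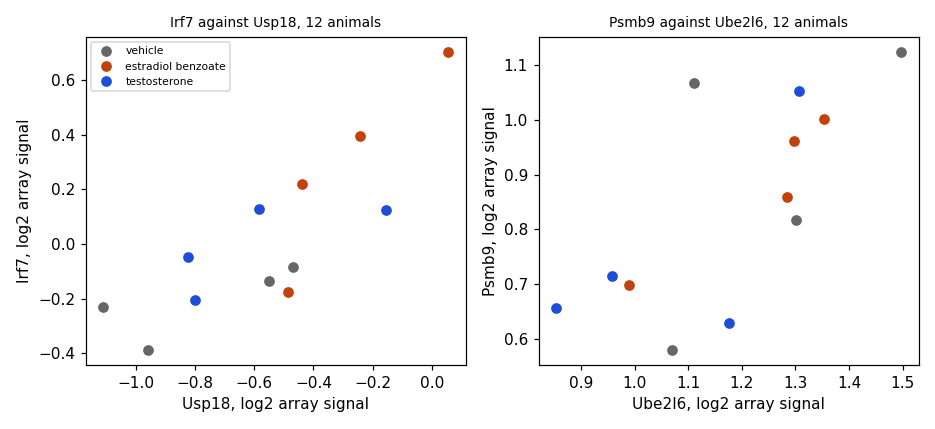
Log2 array signal in the 12 animals, coloured by group, of Irf7 (vertical axis) against Usp18 and of Psmb9 (vertical axis) against Ube2l6. Both relations run across all 3 groups (r = 0.84 and 0.72), and the animal highest in both Usp18 and Irf7 received estradiol benzoate.

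Genes of the same pathways outside the naming rule were taken from lists. For peptide loading of MHC class I, 4 of 5 measured genes were higher by sign in each hormone group, with 0 called: Tap1 differed by 0.46 (SE 0.16, adjusted p = 0.286) and 0.33 (SE 0.16), and the chaperone Canx by 0.40 and 0.47 (SE 0.19, adjusted p = 0.377 and 0.318). The exception was Pdia3, a thiol oxidoreductase of the loading complex, whose brightest probe differed by -0.05 and -0.22 (SE 0.08, adjusted p = 0.821 and 0.295); its other probes gave 0.24 and 0.32 (SE 0.12) and 0.02 and -0.01 (SE 0.11). All 7 lymphocyte markers were also higher by sign in both groups, 0 called, with summed linear signals of 1.33 to 1.70 in vehicle, 1.46 to 1.96 with estradiol benzoate and 1.29 to 1.86 with testosterone. Of 11 interferon response genes, a list that holds Psmb9 and Tap1, 7 were higher in each group (Irf7 0.50 and 0.21, SE 0.16), 0 called, with sums of 13.3 to 15.8, 14.0 to 15.9 and 13.5 to 15.4. The part of either in the Usp18, Psmb9 and Tap1 values was not tested.

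Among 8 genes of proteasome assembly and regulation, 4 were lower with estradiol benzoate and 5 with testosterone, 0 called. Nfe2l1, the factor that drives proteasome genes when proteolysis falls short, differed by 0.24 and 0.25 (SE 0.14, adjusted p = 0.464 and 0.445), its relative Nfe2l2 by -0.21 and -0.07 (SE 0.12), and Akirin2, which brings proteasomes into the nucleus, by 0.48 and 0.35 (SE 0.22, adjusted p = 0.377 and 0.501). Of 12 partners of cullins, 9 were lower in each hormone group, 0 called, led by Vhl, the substrate receptor for hypoxia factors (-0.36 and -0.22, SE 0.12, adjusted p = 0.282 and 0.436), and Cand1, the exchange factor (-0.34 and -0.24, SE 0.12, adjusted p = 0.297 and 0.391). The 3 measured ubiquitin-like proteins were all lower with estradiol benzoate (Nedd8 -0.09, SE 0.09), 0 called.

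Of 12 other E3 ligases, 10 were lower with estradiol benzoate and 9 with testosterone, 0 called. At an unadjusted p under 0.05 with testosterone, 1 was higher and 2 were lower. The higher one, Rnf4, differed by 0.19 and 0.50 (SE 0.18, adjusted p = 0.656 and 0.297). Mdm4, a partner of the p53 ligase, read -0.31, -0.15, -0.88 and 0.15 in vehicle, -0.68, -1.02, -1.44 and -0.50 with estradiol benzoate and -1.11, -1.45, -1.33 and -1.31 with testosterone. Every testosterone animal lay below every vehicle animal, at -1.0 (SE 0.23, adjusted p = 0.152), and the estradiol benzoate animals overlapped vehicle, at -0.61 (SE 0.23, adjusted p = 0.307). Smurf2, a HECT ligase of TGF-beta signalling, differed by -0.28 and -0.17 (SE 0.13, adjusted p = 0.377 and 0.575) on its brighter probe, the one counted, and by -0.88 and -1.22 (SE 0.23, adjusted p = 0.191 and 0.109) on its dimmer one. Among 6 other deubiquitinases, Otub1 differed by -0.23 and -0.24 (SE 0.09, adjusted p = 0.306 and 0.286) on its brighter probe and by 0.07 and 0.02 on its dimmer one. Of 7 genes that deliver proteins to the proteasome, 4 and 5 were lower, 0 called. Ubqln1 lay at -0.16 and -0.18 (SE 0.08) on its brighter probe and 0.05 and -0.02 (SE 0.13) on its dimmer one. On the higher side, Ube4b differed by 0.21 and 0.23 (SE 0.11, adjusted p = 0.416 and 0.386).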

How the data were processed

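Total RNA of mesenteric arteries from 12 rats was measured on 24 CodeLink arrays, 2 per animal. The deposited values are one-colour linear intensity per probe, per the labels; how they were scanned, background-corrected and scaled is not given in the sources used here. Values at or below 0 (327 in all) and blanks (152 to 665 per array) were treated as missing. Intensities were converted to log2, duplicates averaged, and probes with at least 3 animals per group (10228 of 10399) fitted by group means in limma 3.58.1 (R 4.3.3; 9 residual and 2.51 prior degrees of freedom), with Benjamini-Hochberg adjustment over all 10228. Differences are log2, SE and 95% intervals from that fit. No pseudocount was used. Symbols came from the platform annotation (7294 probes with 1 symbol, 88 with several, 3017 with none), of which 7284 matched RefSeq by gene ID, with 0 symbols changed. The limma fit was tested on simulated data, and the other steps were not.

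The members, gene lists and tests were chosen with earlier results of these data known. Genes were named by rule: called probes; the 8 smallest p in each direction per comparison; all Psmb genes and Psme1, Psme2 and Psme3; the 2 brightest and 2 dimmest of each family in vehicle; the 5 largest and 5 smallest spreads; genes with probes of opposite sign; and up to 3 of each further list. Other genes named, such as the remaining subunits and the counted non-overlapping genes, were added to complete a family or a count. Correlations used 100000 permutations, two-sided. Labels share replicate numbers across groups but do not show a pairing, so numbers were not used as pairs. Deviations from group means correlated at -0.116 to 0.298 between same-numbered animals of different groups. Between animals of different numbers they correlated at -0.277 to 0.239. The highest value belonged to estradiol benzoate animal 2 and testosterone animal 2. Whether the numbers mark a shared batch was not tested. Alternatives covered scaling, low values, filters, arrays, models and left-out animals.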

Additional observations from a re-analysis of the deposited data

Results flagged for a closer look

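In 122 groups of 4 animals, those of the 41 probes named by rule, 7 held an animal whose gap to the nearest other exceeded Dixon's 95% critical value; chance alone flags about 1 in 20 groups. Ube2n in testosterone animal 2 was the lowest of its group at -1.03, the others lying at -0.98. Psme2 was lowest in the same animal at 3.40, beside 3.55 to 3.57. Psmb7 was highest in estradiol benzoate animal 3 at 3.35, beside 3.24 to 3.25. The dimmer Usp2 probe was lowest in estradiol benzoate animal 3 at -1.76, beside -1.45 to -1.42, and highest in testosterone animal 6 at -1.13, beside -1.33 to -1.32. Ube2e1 was highest in testosterone animal 4 at 2.67, beside 2.41 to 2.45. Psmc3 was lowest in vehicle animal 3 at 2.03, beside 2.36 to 2.40.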

How the results depend on the processing

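In all 25 alternatives run, 0 of the tested members were called; the smallest adjusted p of a member was 0.0962, for estradiol benzoate with all 24 arrays and the animal as a random block, which called 226 of all probes. The count at an unadjusted p under 0.05 for estradiol benzoate (10) was 6 with quantile normalisation, 6 with array AA alone and 5 without vehicle animal 5 and estradiol benzoate animal 3, a setting chosen after seeing the data; leaving out single animals gave 4 to 11, being 4 without vehicle animal 8 or any one estradiol benzoate animal, 5 without vehicle animal 3 and 6 without testosterone animal 6. For testosterone (7) it was 12 with a pseudocount of 0.1 and 3 in a fit over the 2 groups alone, and 2 to 12 on leaving out single animals, being 2 without testosterone animal 6, 4 without estradiol benzoate animal 3, 5 or 8, and 12 without vehicle animal 8 or testosterone animal 8. Between the hormones (1) it was 2 with array AB alone, 2 with the random block, 2 in a fit over the 2 groups alone, 2 without the same pair of animals, and 0 to 2 on leaving out single animals, being 0 without estradiol benzoate animal 2 or 5 and 2 without vehicle animal 3, estradiol benzoate animal 8 or testosterone animal 2 or 4. The median testosterone difference (-0.07) was -0.033 with quantile normalisation and -0.028 with array AB alone. The cause was not tested. With the replicate number as a block, which the labels do not show to be a pairing, the counts were 2 for estradiol benzoate and 4 for testosterone. With it the testosterone differences of Psmc3 and Ube2g1 were 0.13 and 0.05. With quantile normalisation the differences were -0.13 (estradiol benzoate) and -0.10 (testosterone) for Psma4, -0.10 and -0.13 for the brighter Psmb3 probe, and with testosterone -0.17 for Psme1 and -0.15 for Ube2f. On array AA alone Psmc5 differed by 0.10 and 0.11 and Ube2e1 by -0.14 with testosterone. No difference with an unadjusted p under 0.05 changed sign. Precision is limited by the 4 animals per group and by the noise of dim probes such as Ube2d2b.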
